A study of Homo sapiens with 27 samples.

Results

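Circadian clock genes were followed in the established human breast cancer line MDA-MB-231 while the enzymes adding or removing O-GlcNAc, a single sugar on nuclear and cytoplasmic proteins, were inhibited. The clock genes were BMAL1, CLOCK, PER1, PER2, PER3, CRY1, CRY2, NR1D1, NR1D2 and DBP. They were taken from the array as the probe sets whose platform annotation names 1 of these genes and no other gene, with BMAL1 also accepted under its older symbol ARNTL. This gave 12 probe sets of 8 genes, out of 19064 probe sets that name 1 gene. PER1 and NR1D1 had only probe sets annotated with a second gene, 2 for PER1 with MIR6883 and 3 for NR1D1 with THRA, so these 5 probe sets stayed out of the tests described here.

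Cells were treated with 5SGlcNAc at 50 µM, an inhibitor of the O-GlcNAc transferase OGT, with 25 µM Thiamet-G, which blocks the O-GlcNAcase OGA, or with DMSO, the vehicle. All cells were grown in DMEM with 10% FBS, and total RNA was hybridised to Affymetrix expression arrays, on which a probe set is a group of probes read as 1 value. For each treatment there was 1 array at 0, 2, 4, 6, 8 and 24 h, and there were 3 arrays at 48 h, 27 arrays in all. Times are hours of treatment, and the labels give no phase of the clock for them.

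The clock is a transcriptional feedback loop. BMAL1 and CLOCK form the activator that binds E-box sequences and switches on the PER and CRY genes, whose proteins accumulate and inhibit the activator. NR1D1 and NR1D2, the REV-ERB nuclear receptors, repress BMAL1 through AGGTCA sites in its promoter, where the ROR receptors activate it. DBP is a PAR bZIP factor that is itself an E-box target and activates genes with D-box sequences, PER genes among them. PER1 and PER2 also respond directly to serum and to cAMP. O-GlcNAc has been found on clock proteins, BMAL1, CLOCK and PER2 among them.

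The promoters of 5 clock genes are shown because these genes carry the largest changes with time or between the inhibitors. Each sequence is RefSeq's for GRCh38.p14, spans 300 bases around a transcription start and runs along the gene's own strand. Capitals mark the matches, on either strand, to the E-box CACGTG, the D-box TTATGTAA, its variant TTACGTAA, the receptor site AGGTCA and the core TGACG of the cAMP element.
BMAL1: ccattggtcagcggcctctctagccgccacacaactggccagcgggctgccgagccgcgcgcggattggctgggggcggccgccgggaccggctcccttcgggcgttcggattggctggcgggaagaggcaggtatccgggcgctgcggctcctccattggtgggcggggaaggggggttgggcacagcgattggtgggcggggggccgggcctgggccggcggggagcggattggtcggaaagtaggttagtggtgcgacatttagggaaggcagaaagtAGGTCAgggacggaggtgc
CRY1: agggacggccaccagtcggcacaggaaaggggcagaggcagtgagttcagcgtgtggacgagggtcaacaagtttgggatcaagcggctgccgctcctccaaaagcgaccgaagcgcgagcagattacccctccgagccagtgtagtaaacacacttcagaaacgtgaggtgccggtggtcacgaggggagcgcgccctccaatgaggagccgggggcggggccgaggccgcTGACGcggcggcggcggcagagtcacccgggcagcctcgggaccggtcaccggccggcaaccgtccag
PER2: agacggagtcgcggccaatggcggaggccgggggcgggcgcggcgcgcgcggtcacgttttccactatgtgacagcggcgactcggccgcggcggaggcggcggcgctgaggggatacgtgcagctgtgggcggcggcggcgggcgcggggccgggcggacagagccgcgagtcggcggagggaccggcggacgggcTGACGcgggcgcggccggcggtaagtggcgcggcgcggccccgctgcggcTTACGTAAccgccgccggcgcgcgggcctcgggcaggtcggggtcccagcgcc
PER3: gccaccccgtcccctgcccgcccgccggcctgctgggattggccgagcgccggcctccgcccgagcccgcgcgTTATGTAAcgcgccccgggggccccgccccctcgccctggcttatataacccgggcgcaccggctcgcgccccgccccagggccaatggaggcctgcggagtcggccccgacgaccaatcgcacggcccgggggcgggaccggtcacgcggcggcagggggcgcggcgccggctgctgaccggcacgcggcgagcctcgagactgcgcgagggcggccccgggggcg
NR1D2: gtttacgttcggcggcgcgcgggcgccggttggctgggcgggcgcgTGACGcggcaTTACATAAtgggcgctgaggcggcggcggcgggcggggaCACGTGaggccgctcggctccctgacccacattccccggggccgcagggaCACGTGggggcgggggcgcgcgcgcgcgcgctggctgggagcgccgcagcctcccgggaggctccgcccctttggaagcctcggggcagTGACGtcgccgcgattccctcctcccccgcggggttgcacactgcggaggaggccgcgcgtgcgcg
The BMAL1 sequence lies at chr11:13277540-13277839 on the plus strand and holds AGGTCA 32 bases after the start. It belongs to the downstream of the listed BMAL1 starts, and the sequence of the upstream start held none of the marked motifs. The CRY1 sequence lies at chr12:107093500-107093799 on the minus strand, with TGACG at -18. The PER2 sequence lies at chr2:238288561-238288860 on the minus strand, with TGACG at -53 and TTACGTAA at -3. The PER3 sequence lies at chr1:7784041-7784340 on the plus strand, with TTATGTAA at -177. It belongs to the upstream of the listed PER3 starts, and the sequence of the downstream start held none of the marked motifs. The NR1D2 sequence belongs to the downstream of its 2 listed starts and lies at chr3:23945871-23946170 on the plus strand. It holds CACGTG at -155 and -105, TTATGTAA on the opposite strand at -194, and TGACG at -204 and -16. At the upstream NR1D2 start the only marked motif was TGACG, on the opposite strand at -1. Among 15 RefSeq promoters of the 10 clock genes, CACGTG occurred in 2 (NR1D2 and PER1), TTATGTAA in 2 (NR1D2 and PER3), TTACGTAA in 1 (PER2), AGGTCA in 4 (of BMAL1, CRY2 and PER1) and TGACG in 7 (of CLOCK, CRY1, CRY2, NR1D2 and PER2). Of 35116 promoters of the same length, 7.26% held CACGTG, 0.886% TTATGTAA, 0.125% TTACGTAA, 13.8% AGGTCA and 24.6% TGACG. The full cAMP element TGACGTCA, which contains TGACG, was in 0 of the 15 and in 1.85% of all promoters, and the GC box GGGCGG was in 13 and in 45.0%. These matches describe letters and show no binding.

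The deposited values are log2 levels on which a difference of 1 is a doubling. The 48 h arrays had medians of 7.68 to 7.76 and the other 18 arrays medians of 7.43 to 7.53, so that levels at 48 h were not set against those of other times. Each marker gene was taken at its brightest probe set over the 18 arrays of 0 to 24 h. So taken, all 6 marker genes fixed for MDA-MB-231 lay above the 75th percentile of 9.73, from EGFR at 11.74 to VIM at 14.85. Other probe sets of these genes read as low as 5.95 for EGFR and 5.82 for CD44. Of the markers of other cells, 0 of 8 measured haematopoietic and 0 of 10 fibroblast genes lay that high, while 3 of 13 luminal genes did, with KRT18 highest at 13.21 and PGR lowest at 3.95. The check of the targeted enzymes showed OGA mRNA at 48 h changed by -1.08 with 5SGlcNAc and by 0.62 with Thiamet-G against DMSO in probe set 200899_s_at, while OGT probe sets disagreed in direction with 5SGlcNAc (209240_at 0.86 and 207563_s_at -1.40). In 2 arrays of 4 h, the 3′ probe set of ACTB exceeded its 5′ probe set by more than elsewhere, by 1.24 in Thiamet-G and by 1.64 in DMSO, against 0.42 to 0.95 in the other 16 arrays of 0 to 24 h. In these bulk samples, fewer cells with a transcript and less transcript per cell cannot be told apart.

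BMAL1, the clock activator that pairs with CLOCK, fell during the first hours in all 3 series and was back at its 0 h level at 24 h. In probe set 209824_s_at the 5SGlcNAc series read 8.26, 8.08, 7.90, 7.91, 8.13 and 8.44 at 0, 2, 4, 6, 8 and 24 h. The Thiamet-G series read 8.35, 8.15, 7.86, 7.71, 7.80 and 8.23, and the DMSO series 8.34, 8.09, 7.97, 7.82, 7.91 and 8.28. Every array of 2, 4, 6 and 8 h lay below every array of 0 h, whereas those of 24 h overlapped them. The time means ordered as 6, 4, 8, 2, 0 and 24 h from low to high, and the ranges of 6, 4 and 8 h overlapped. In the tests against 0 h the 3 treatment series stood in for replicates, since each time had 1 array per treatment. The spread behind their SE and p-values thus mixes array noise with any difference between treatments in the change with time. Against 0 h, with the series as a block, the difference was -0.40 at 4 h (SE 0.0768, limma adjusted p = 0.0114), -0.50 at 6 h, 0.706-fold (adjusted p = 0.00456), and -0.37 at 8 h (adjusted p = 0.016). At 2 h it was -0.21 (adjusted p = 0.461) and at 24 h 0.00 with a 95% interval of -0.16 to 0.17. The dimmer BMAL1 probe set 210971_s_at, under the 40th percentile of all probe sets, was also lower at 4 h (-0.47, adjusted p = 0.0289) and at 8 h (-0.40, adjusted p = 0.0432), with -0.36 at 6 h (adjusted p = 0.0806).

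Limma called 0.462% of all probe sets at 2 h, 2.71% at 4 h, 3.35% at 6 h, 4.65% at 8 h and 7.84% at 24 h. Of the 12 clock probe sets it called 0 at 2 h, where 4 had an unadjusted p under 0.05, then 2 at 4 h, 3 at 6 h, 3 at 8 h and 2 at 24 h. All 5 comparisons share the 0 h arrays. With 1 series left out, only 2 arrays stand for each time. BMAL1 209824_s_at at 4 h then gave -0.43 without the 5SGlcNAc series, -0.36 without the Thiamet-G series and -0.42 without the DMSO series, past the threshold in none (adjusted p = 0.0725, 0.122 and 0.229). At 6 h the BMAL1 call held without the 5SGlcNAc series (-0.58, adjusted p = 0.05) and was lost without the Thiamet-G series (-0.43, adjusted p = 0.0938) or the DMSO series (-0.49, adjusted p = 0.193). At 8 h it held without the 5SGlcNAc series (-0.49) and was lost without the Thiamet-G series (-0.28, adjusted p = 0.256) or the DMSO series (-0.34, adjusted p = 0.167). Without the 2 arrays of 4 h with the high ACTB difference, BMAL1 at 4 h was -0.48 with an adjusted p of 0.158. The calls of 210971_s_at at 4 and 8 h were lost without any 1 of the series and without the DMSO array of 4 h, where the adjusted p was 0.103 at 4 h and 0.0548 at 8 h. The 8 h call of 210971_s_at held in 4 of 11 alternatives, and was also lost after quantile normalization (adjusted p = 0.073) and without the series as a block (0.0656). Luminal markers were also lower than at 0 h, in 3, 2, 6 and 6 of 25 probe sets at 4, 6, 8 and 24 h, with a list mean of 6.92 to 7.01 at 24 h against 7.09 to 7.13 at 0 h. At 24 h 2 of 24 fibroblast and 2 of 20 MDA-MB-231 marker probe sets were lower too, and 0 of 12 haematopoietic ones, and the markers' part in the clock gene changes was not tested.

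**Figure D1:**
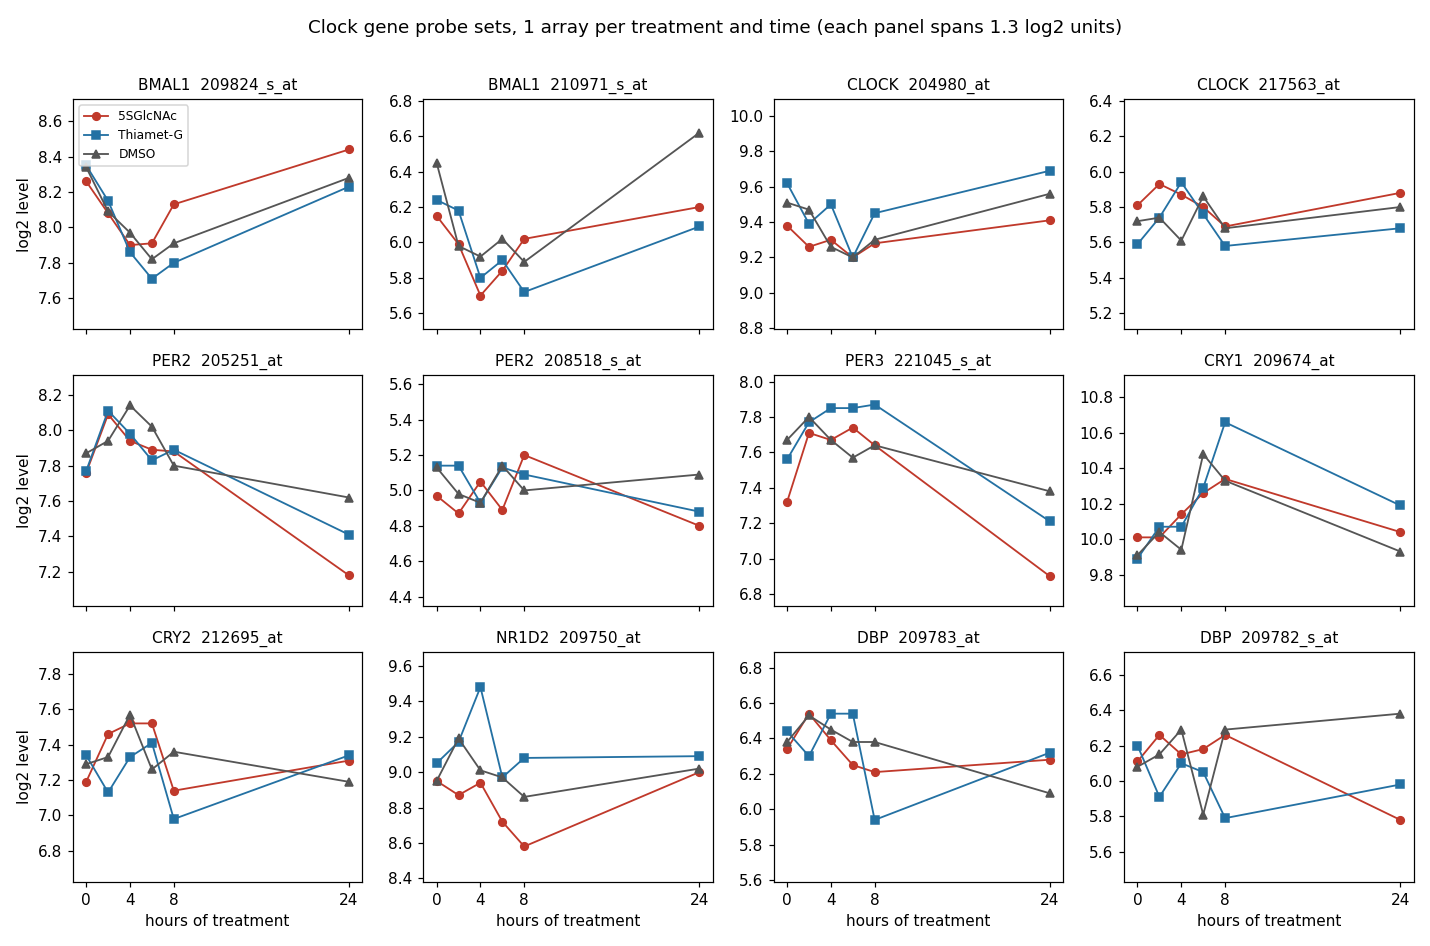
Log2 level (y axis) of the 12 clock gene probe sets against hours of treatment (x axis), 1 array per point, with 1 line each for 5SGlcNAc, Thiamet-G and DMSO and a span of 1.3 log2 units in every panel. BMAL1 dips at 4 to 8 h in all 3 series, CRY1 peaks at 6 or 8 h, and PER2 205251_at and PER3 are lowest at 24 h in all 3 series.

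CLOCK, the histone acetyltransferase partner of BMAL1, had a smaller dip. Probe set 204980_at read 9.38, 9.26, 9.30, 9.20, 9.28 and 9.41 in the 5SGlcNAc series, 9.62, 9.39, 9.50, 9.20, 9.45 and 9.69 in the Thiamet-G series, and 9.51, 9.47, 9.26, 9.20, 9.30 and 9.56 in the DMSO series. All 3 arrays of 6 h were at 9.20, below the 0 h arrays. The fall at 6 h was -0.30 (SE 0.0675, limma adjusted p = 0.0246), and it missed the threshold without the 5SGlcNAc series (-0.37, adjusted p = 0.122), without the Thiamet-G series (-0.25, adjusted p = 0.265) and without the DMSO series (-0.30, adjusted p = 0.269), and also without the series as a block (adjusted p = 0.0722). The dim CLOCK probe set 217563_at ranged only from 5.58 to 5.94 over the 18 arrays and read 0.10 above 0 h at 6 h, in the other direction.

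The period genes PER2 and PER3, repressors of BMAL1 and CLOCK, were lower at 24 h than at 0 h. PER2 probe set 205251_at read 7.76, 8.09, 7.94, 7.89, 7.88 and 7.18 in the 5SGlcNAc series, 7.77, 8.11, 7.98, 7.83, 7.89 and 7.41 in the Thiamet-G series, and 7.87, 7.94, 8.14, 8.02, 7.80 and 7.62 in the DMSO series. Its highest level came at 2 h with both inhibitors and at 4 h with DMSO, and its lowest at 24 h in all 3. PER3 probe set 221045_s_at read 7.32, 7.71, 7.67, 7.74, 7.64 and 6.90 in the 5SGlcNAc series, 7.56, 7.77, 7.85, 7.85, 7.87 and 7.21 in the Thiamet-G series, and 7.67, 7.80, 7.67, 7.57, 7.64 and 7.38 in the DMSO series. At 24 h PER2 fell by 0.40 on the log2 scale (SE 0.0898, limma adjusted p = 0.0135), with all arrays below those of 0 h. PER3 fell by 0.35 (SE 0.0999, adjusted p = 0.0416), with overlap, since the DMSO array of 24 h (7.38) exceeded the 5SGlcNAc array of 0 h (7.32). Early differences were positive and missed the threshold, at 2 h 0.25 for PER2 (adjusted p = 0.449) and 0.24 for PER3 (adjusted p = 0.579).

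Both 24 h calls held without the DMSO series (PER2 -0.47 and PER3 -0.39). They were lost without the 5SGlcNAc series (PER2 -0.31, adjusted p = 0.187, and PER3 -0.32, adjusted p = 0.216) and without the Thiamet-G series (PER2 -0.41, adjusted p = 0.127, and PER3 -0.36, adjusted p = 0.228). The PER3 call also went without both 4 h arrays of high ACTB difference (adjusted p = 0.06) and without the series as a block (0.0734). The second PER2 probe set, 208518_s_at, was dim, with 4.80 to 5.20 over the 18 arrays and -0.15 at 24 h (adjusted p = 0.365).

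CRY1, the cryptochrome that inhibits BMAL1 and CLOCK at the end of the loop, rose at 6 and 8 h and was near its starting level at 24 h. Probe set 209674_at read 10.01, 10.01, 10.14, 10.26, 10.34 and 10.04 in the 5SGlcNAc series, 9.89, 10.07, 10.07, 10.29, 10.66 and 10.19 in the Thiamet-G series, and 9.91, 10.04, 9.94, 10.48, 10.33 and 9.93 in the DMSO series. Every array of 6 and 8 h lay above every array of 0 h. The rise was 0.41 at 6 h (SE 0.0915, limma adjusted p = 0.0256) and 0.51 at 8 h, 1.42-fold (adjusted p = 0.00761). With 1 series left out it ranged from 0.32 (without the DMSO series) to 0.49 (without the 5SGlcNAc series) at 6 h, with adjusted p of 0.121 to 0.311. At 8 h it was 0.59 without the 5SGlcNAc series (adjusted p = 0.0659), 0.55 without the DMSO series (0.0796) and 0.38 without the Thiamet-G series (0.173). CRY2, the other cryptochrome, ranged from 6.98 to 7.57 in probe set 212695_at, and its largest difference from 0 h was 0.20 at 4 h (adjusted p = 0.349).

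NR1D2, the REV-ERBβ repressor of BMAL1, was not called at any time against 0 h, with differences from -0.14 at 8 h to 0.16 at 4 h. DBP had 2 dim probe sets, at 5.94 to 6.54 (209783_at) and 5.78 to 6.38 (209782_s_at), and its largest difference was -0.21 for 209783_at at 8 h (adjusted p = 0.279). The range of a probe set over the 18 arrays placed PER3 at the 97.6th percentile of all probe sets, PER2 205251_at at the 97.3rd, NR1D2 at the 96.2nd, CRY1 at the 91.4th and BMAL1 209824_s_at at the 89.1st, while CLOCK 204980_at was at the 54.1st. BMAL1 210971_s_at was at the 96.4th, DBP 209782_s_at at the 75th, DBP 209783_at at the 74th and CRY2 at the 72.7th. The dim PER2 208518_s_at was at the 30.4th and the dim CLOCK 217563_at at the 21.7th. The medians of the 12 differences from 0 h were 0.05, 0.08, -0.01, -0.09 and 0.01 at 2, 4, 6, 8 and 24 h, with all-probe medians of 0.00, 0.01, 0.00, -0.01 and 0.01.

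**Figure D2:**
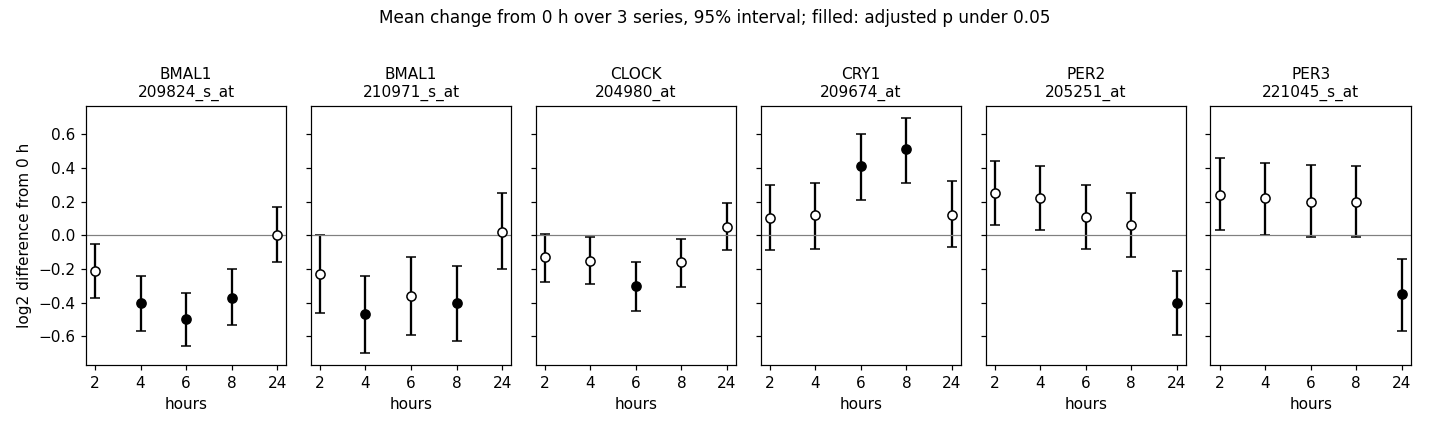
Mean log2 difference from 0 h over the 3 series (y axis) with its 95% interval at 2, 4, 6, 8 and 24 h (x axis, evenly spaced labels), for 6 clock gene probe sets. Filled points have a limma adjusted p under 0.05; BMAL1 reaches -0.50 at 6 h, CRY1 0.51 at 8 h, PER2 -0.40 and PER3 -0.35 at 24 h.

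At 48 h, where each treatment had 3 arrays, no clock probe set was called in any comparison of treatments. Limma called 7.52% of all probe sets for 5SGlcNAc against DMSO, 2.1% for Thiamet-G against DMSO and 9.98% for 5SGlcNAc against Thiamet-G, and 0 of the 12 clock probe sets in each, while 4, 2 and 3 of them had an unadjusted p under 0.05. The clock medians were -0.04, -0.06 and -0.02, against 0.01, -0.01 and 0.02 over all probe sets. Both inhibitors were compared with the same DMSO arrays. With 5SGlcNAc 2 of 25 luminal and 1 of 12 haematopoietic marker probe sets were lower than with DMSO, and 0 of 24 fibroblast and 0 of 20 MDA-MB-231 ones. Against Thiamet-G, 5SGlcNAc had 5 of 25 luminal, 3 of 12 haematopoietic, 2 of 20 MDA-MB-231 and 1 of 24 fibroblast marker probe sets lower and 0 higher. The part of these markers in the 48 h differences of clock genes and their partners was not tested.

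PER2 had the largest difference with 5SGlcNAc. Probe set 205251_at read 7.42, 7.37 and 7.45 in 5SGlcNAc arrays and 7.56, 7.51 and 7.84 in Thiamet-G arrays, against 7.57, 7.75 and 7.74 in DMSO arrays, and the 5SGlcNAc arrays overlapped neither of the other groups. The difference between 5SGlcNAc and DMSO was -0.27, 0.827-fold (95% interval -0.47 to -0.08, limma adjusted p = 0.0949). Among the alternatives it passed the threshold only without Thiamet-G array 3 (adjusted p = 0.0314), with only the arrays of both groups (0.0411) and with dim probe sets left out (0.0428). PER3 was -0.21 (adjusted p = 0.184), with 7.29, 7.01 and 7.18 in 5SGlcNAc arrays against 7.43, 7.24 and 7.45 in DMSO arrays, which overlapped.

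BMAL1 209824_s_at read 8.91, 8.79 and 8.97 in 5SGlcNAc arrays, against 8.72, 8.68 and 8.72 in Thiamet-G arrays, without overlap, and 8.84, 8.82 and 8.82 in DMSO arrays. The difference between 5SGlcNAc and Thiamet-G was 0.18 (95% interval 0.07 to 0.30, limma adjusted p = 0.0539). It was past the threshold only after quantile normalization (0.0242) and in 4 other settings, without 5SGlcNAc array 2 among them (0.23, adjusted p = 0.0238). The dim BMAL1 probe set gave -0.01 in the same comparison. CRY1 read 10.85, 10.55 and 10.68 in Thiamet-G arrays, against 10.46, 10.57 and 10.37 in DMSO arrays, with overlap and a difference of 0.23 (adjusted p = 0.184). Against the 5SGlcNAc arrays (10.48, 10.46 and 10.53), the CRY1 difference of 5SGlcNAc from Thiamet-G was -0.20 (adjusted p = 0.143). It passed the threshold only without Thiamet-G array 2 (-0.28, adjusted p = 0.0439).

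NR1D2 read 9.14, 8.94 and 9.08 in 5SGlcNAc arrays and 9.21, 9.19 and 9.19 in Thiamet-G arrays, against 9.32, 9.23 and 9.10 in DMSO arrays. CLOCK 204980_at was at 9.41, 9.27 and 9.27 in 5SGlcNAc arrays and at 9.35, 9.32 and 9.29 in Thiamet-G arrays, against 9.64, 9.40 and 9.39 in DMSO arrays. Both CLOCK differences from DMSO were -0.16, with 95% intervals of -0.32 to 0.00 with 5SGlcNAc and -0.32 to 0.01 with Thiamet-G. CRY2 differed from DMSO by 0.09 with 5SGlcNAc (-0.15 to 0.34) and by -0.03 with Thiamet-G (-0.28 to 0.22). For DBP the 5SGlcNAc difference was 0.02 in 209783_at and -0.26 in 209782_s_at (adjusted p = 0.204), so that its probe sets disagreed.

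**Figure D3:**
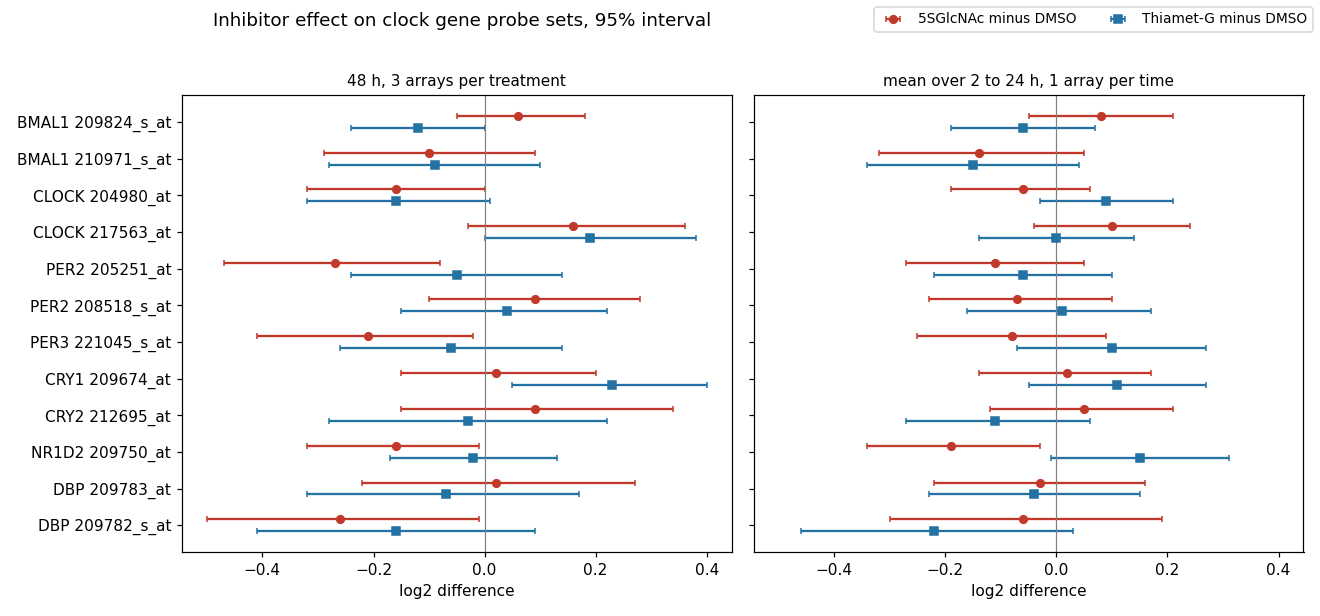
Log2 difference of each inhibitor from DMSO (x axis) with its 95% interval for the 12 clock gene probe sets (rows), at 48 h on the left and as the mean over 2 to 24 h on the right; circles are 5SGlcNAc and squares Thiamet-G. The differences lie between -0.27 and 0.23, and none had a limma adjusted p under 0.05.

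Over 2 to 24 h the inhibitors were compared across 5 times with 1 array each, the times standing in for replicates. Limma called 0% of all probe sets for 5SGlcNAc against DMSO (870 with an unadjusted p under 0.05), 0% for Thiamet-G against DMSO (1598) and 0.0944% for 5SGlcNAc against Thiamet-G (2423). Of the clock probe sets 0 were called in each, and 1, 0 and 4 had an unadjusted p under 0.05. The lowest p belonged to NR1D2. Its 5SGlcNAc arrays read 8.87, 8.94, 8.72, 8.58 and 9.0 at 2, 4, 6, 8 and 24 h, its Thiamet-G arrays 9.17, 9.48, 8.97, 9.08 and 9.09, and its DMSO arrays 9.19, 9.01, 8.97, 8.86 and 9.02. At 0 h, outside this fit, the 5SGlcNAc array read 8.95, the Thiamet-G array 9.05 and the DMSO array 8.95. The 5SGlcNAc series was thus already below the Thiamet-G series at 0 h. NR1D2 was lower with 5SGlcNAc than with Thiamet-G at 5 of 5 times, by 0.09 to 0.54. The mean difference, which does not allow for 0 h, was -0.33, 0.793-fold (SE 0.0736, limma unadjusted p = 0.000535, adjusted p = 0.123). With a trended and robust variance, the only alternative past the threshold, the adjusted p was 0.0205. At 48 h the same difference was -0.14 (adjusted p = 0.229).

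The effect of each inhibitor at 48 h was also tested against its effect over 2 to 24 h. This fit shared a spread between the 48 h arrays and the single arrays of 2 to 24 h. As the 48 h arrays stood at other levels, a difference by time cannot be told apart from a difference between the sets of arrays. Limma called 0.986% of all probe sets for 5SGlcNAc and 0.0105% for Thiamet-G, and 0 of the clock probe sets in both, with 0 and 1 at an unadjusted p under 0.05. That 1 was CLOCK 204980_at, whose Thiamet-G effect was -0.16 at 48 h and 0.09 over 2 to 24 h, a difference of -0.25 (adjusted p = 0.669).

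Beyond these genes, the core loop partners NPAS2 and BHLHE40 had probe sets called lower with 5SGlcNAc than with DMSO at 48 h. NPAS2, the paralogue that can take the place of CLOCK beside BMAL1, fell in 4 of its 5 probe sets at 48 h. Probe set 213462_at read 9.57, 9.77 and 9.80 in 5SGlcNAc arrays and 10.41, 10.36 and 10.36 in Thiamet-G arrays, against 10.45, 10.46 and 10.41 in DMSO arrays. In the 4 called probe sets the differences from DMSO were -0.73 (213462_at), -0.69 (39549_at), -0.66 (205460_at) and -0.61 (39548_at), with limma adjusted p from 0.000233 to 0.000515. All their 5SGlcNAc arrays lay below all Thiamet-G and DMSO arrays. That separation adds no support, since the calls rest on the same values, and its share over all probe sets was not counted. The probe set 205459_s_at read 8.38, 8.10 and 8.21 in 5SGlcNAc arrays, against 8.48, 8.41 and 8.39 in DMSO arrays, with a difference of -0.20 that was not called (adjusted p = 0.147). Against Thiamet-G the 4 differences were -0.77 (39549_at), -0.66 (213462_at), -0.58 (39548_at) and -0.57 (205460_at), all called. Thiamet-G against DMSO gave -0.09 to 0.08 over the 5 probe sets, none called.

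The 48 h effect of 5SGlcNAc on NPAS2 also exceeded its 2 to 24 h effect, by -0.68 (213462_at and 39549_at), -0.58 (205460_at) and -0.53 (39548_at), with adjusted p of 0.00171, 0.00961, 0.0187 and 0.0142. With 1 array of 48 h left out the adjusted p rose to at most 0.0673 for 205460_at, lost without DMSO array 1 or 2 or 5SGlcNAc array 1 or 2, and 0.063 for 39548_at, lost without DMSO array 2 or 5SGlcNAc array 1. At 24 h the single 5SGlcNAc array of 213462_at read 9.94 and the Thiamet-G array 10.31, against 10.23 in DMSO, with no test. In the time series NPAS2 was lower than at 0 h at 6 h (213462_at -0.40, adjusted p = 0.0245, and 39548_at -0.35, adjusted p = 0.0432) and at 8 h (39548_at -0.36, adjusted p = 0.0308), calls that were lost without any 1 of the series. Without the DMSO array of 4 h the 39548_at call at 6 h had an adjusted p of 0.0501.

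**Figure D4:**
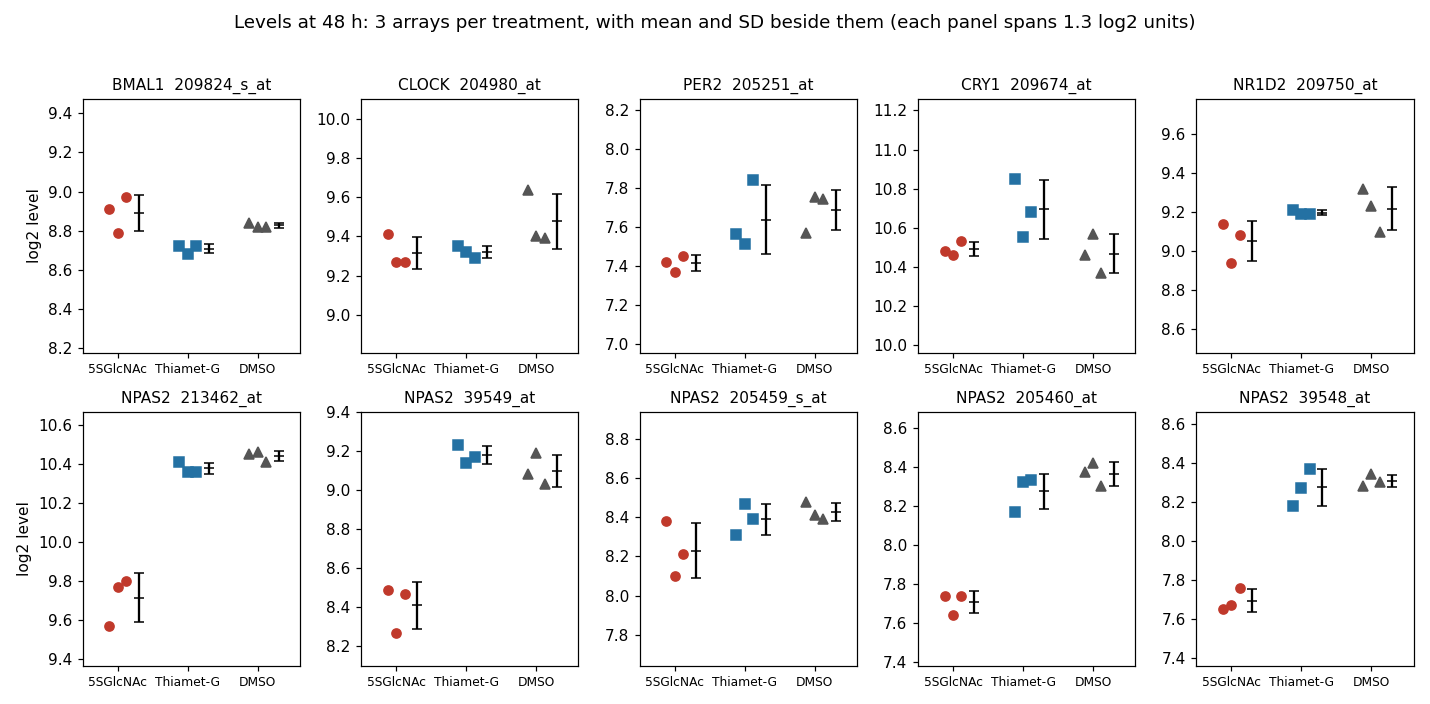
Log2 level at 48 h (y axis) in 5SGlcNAc, Thiamet-G and DMSO arrays (x axis), 1 point per array with the mean and SD beside the points, for 5 clock gene probe sets (upper row) and the 5 NPAS2 probe sets (lower row). NPAS2 213462_at lies at 9.57 to 9.80 with 5SGlcNAc and at 10.36 to 10.46 in the other arrays, while the clock genes differ by less than 0.3 between mean levels.

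The list of core loop partners held 12 probe sets of 6 measured genes. With 5SGlcNAc at 48 h, 5 were lower and 0 higher than with DMSO (median -0.19, beside 7.52% called over all probe sets), the 4 of NPAS2 and BHLHE40. BHLHE40, a repressor that binds E-boxes, read 10.61, 10.70 and 10.86 in 201170_s_at in 5SGlcNAc arrays, against 11.05, 11.17 and 10.97 in DMSO arrays, a difference of -0.34 (adjusted p = 0.0232), while its other probe set 201169_s_at gave -0.10 (adjusted p = 0.526). That call was lost without DMSO array 1 or 2, without 5SGlcNAc array 1 or 2 and with only the arrays of both groups, with an adjusted p of up to 0.0872 over all alternatives. Against Thiamet-G, 5 were lower and 0 higher, beside 9.98% called over all probe sets. They were the 4 of NPAS2 and BHLHE41, the paralogue of BHLHE40. The BHLHE41 difference was -0.33 (limma adjusted p = 0.0169). Its call was lost without 5SGlcNAc array 1 or 2 and with only the arrays of both groups, with an adjusted p of up to 0.0611. At 24 h BHLHE40 was at 9.55 in the 5SGlcNAc array, 9.73 in the Thiamet-G array and 10.00 in the DMSO array, against 10.48, 10.37 and 10.56 at 0 h. The difference was -0.71 (limma adjusted p = 0.000176). It was the only 1 of 41 recomputed list calls against 0 h that held under every alternative tried. At 24 h the probe set 201169_s_at of BHLHE40 gave -0.30 (adjusted p = 0.132). The list of RORs, the other PAR bZIP factors and NFIL3, which act on AGGTCA sites and D-boxes, also included CEBPB. It held 11 probe sets of 6 measured genes. Limma called 0 of them in any of the 13 comparisons, beside 0% to 9.98% of all probe sets. At 48 h the RORA, RORB, HLF and TEF probe sets averaged 3.37 to 6.13 per treatment. These levels were under the 40th percentile of 7.08, so that the 0 calls cannot exclude changes in these genes.

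Among 45 probe sets of 21 measured kinases, phosphatases and ubiquitin ligases of clock proteins, 0 were called for either inhibitor against DMSO at 48 h. Over all probe sets 7.52% were called with 5SGlcNAc and 2.1% with Thiamet-G. For 5SGlcNAc against Thiamet-G, 1 of the 45 was higher (FBXW7, 0.27) and 1 lower (PPP1CB, -0.45), beside 9.98% of all probe sets. These calls held in 10 of 18 and in 7 of 17 alternatives. Among 34 probe sets of 15 co-activators and co-repressors, the only call against DMSO at 48 h was KAT2B, an acetyltransferase, at -0.32 with 5SGlcNAc (203845_at, adjusted p = 0.017). It was lost without DMSO array 1 or 2 or 5SGlcNAc array 1 or 2, with an adjusted p of up to 0.0649. This 1 call of 34 stood beside 7.52% of all probe sets. For 5SGlcNAc against Thiamet-G, 1 of the 34 was higher and 1 lower, beside 9.98% of all probe sets. HDAC3 was higher (0.18) and held in 13 of 18 alternatives. KAT2B was lower (-0.50, limma adjusted p = 0.00141) and held in 18 of 18. In time, 2 of the 34 were higher than at 0 h at 6 h, 3 at 8 h and 3 at 24 h, where 3.35%, 4.65% and 7.84% of all probe sets were called, so that the count at 24 h was near the background. They included SIRT1, the deacetylase that acts on BMAL1 and PER2, with 0.51 at 6 h (218878_s_at, adjusted p = 0.0161), 0.63 at 8 h (0.00451) and 0.46 at 24 h (0.0118), and EZH2, a histone methyltransferase, with 0.27 at 6 h (203358_s_at, adjusted p = 0.0138), 0.29 at 8 h and 0.19 at 24 h. With any 1 of the series left out both SIRT1 and EZH2 missed the threshold.

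Of 25 probe sets of 16 widely cited clock output genes, 2 were higher and 4 lower with 5SGlcNAc at 48 h than with DMSO, and 0 were higher and 1 lower with Thiamet-G (medians -0.03 and 0.01). Over all probe sets 7.52% were called with 5SGlcNAc and 2.1% with Thiamet-G, and the Thiamet-G count was near that background. KLF9, a Krüppel-like repressor that responds to glucocorticoids, read 5.22, 4.94 and 4.96 in the dim probe set 203543_s_at in 5SGlcNAc arrays, against 5.98, 6.06 and 5.87 in DMSO arrays (-0.93, adjusted p = 0.00276). Its other probe sets, also dim at 48 h (under the 40th percentile of 7.08), differed from this. Probe set 203542_s_at read 6.34, 6.35 and 6.44 in 5SGlcNAc arrays, against 6.72, 6.86 and 6.77 in DMSO arrays (-0.41, limma adjusted p = 0.0199). That call was lost in 4 settings that left out a DMSO or 5SGlcNAc array, with an adjusted p of up to 0.077. The third, 203541_s_at, read 6.03, 6.03 and 5.88 in 5SGlcNAc arrays, against 5.85, 5.88 and 5.90 in DMSO arrays (0.10, adjusted p = 0.635). ALAS1, the first enzyme of haem synthesis, was higher by 0.34 (205633_s_at, adjusted p = 0.00616). CDKN1A, the cell cycle inhibitor p21, was lower with Thiamet-G (202284_s_at -0.35, adjusted p = 0.0265), a call lost without any 1 of the DMSO arrays, without Thiamet-G array 1 or 3, after median centring and with only the arrays of both groups, with an adjusted p of up to 0.0987. In time, KLF9 203542_s_at was below its 0 h level at 6 h (-0.41, adjusted p = 0.0362), 8 h (-0.54) and 24 h (-0.39), where 203541_s_at and 203543_s_at were not called, and these calls were lost without the 5SGlcNAc series, the DMSO series or the series block, and at 6 h also without the Thiamet-G series.

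The serum and cAMP immediate early genes, 32 probe sets of 17 genes, had 4 higher and 3 lower than 0 h at 2 h (median 0.11) and 6 higher and 0 lower at 4 h (median 0.16), where 0.462% and 2.71% of all probe sets were called. EGR1, a zinc finger factor induced by growth factors, rose by 1.79 at 2 h (201694_s_at, adjusted p = 0.000494) and 1.54 at 4 h (0.000708), and MYC fell by 0.64 at 2 h (202431_s_at, adjusted p = 0.000519). These calls were lost only without the DMSO series, where the adjusted p was 0.119 at 2 h and 0.12 for EGR1 at 4 h. At 48 h, 3 were higher and 4 lower with 5SGlcNAc than with DMSO, and 3 higher and 0 lower with Thiamet-G, ATF3 (0.54), EGR1 (0.36) and DUSP1 (0.31), beside 7.52% and 2.1% called over all probe sets. Second probe sets of EGR1 (0.27) and DUSP1 (0.14) were not called with Thiamet-G. The EGR1 and DUSP1 calls at 48 h were lost without any 1 of the DMSO arrays and without Thiamet-G array 1 or 3 (adjusted p up to 0.0668 and 0.0749), and with only the arrays of both groups, where the ATF3 call was lost too (adjusted p = 0.0505). Of 20 probe sets of 11 glucocorticoid receptor targets, 2 were higher and 5 lower with 5SGlcNAc at 48 h, and 1 was higher and 0 lower with Thiamet-G, beside 7.52% and 2.1% of all probe sets; KLF9 stands in both this list and that of clock outputs.

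Within the 18 arrays of 0 to 24 h, which share treatment series and times, the levels of PER2 205251_at and PER3 went together (Pearson r = 0.84 over 18 arrays), as did both BMAL1 probe sets (0.79). BMAL1 209824_s_at ran against PER3 (-0.69), CRY1 (-0.66) and PER2 205251_at (-0.55) and with CLOCK 204980_at (0.60). Its correlation was weak with CRY2 (-0.18), PER2 208518_s_at (-0.13), CLOCK 217563_at (-0.07), NR1D2 (-0.03) and DBP (-0.12 and 0.06). The CLOCK probe sets gave -0.28 with each other, the PER2 probe sets 0.34 and the DBP probe sets 0.23. The probe sets most like BMAL1 209824_s_at were of DDX17 (0.903), FHL2 (0.88) and HEMK2 (0.88), and DDX17 was also among the 3 most like BMAL1 210971_s_at (0.878). CRY1 was most like PPM1A (0.935), SPAG1 (0.927) and RAB7A (0.925), and CLOCK 204980_at most like SP100 (0.896), BBX (0.888) and PTPRF (0.885). PER2 was most like CHST11 (0.934), PTGS2 (0.926) and NASP (0.917), and PER3 like DMAC2L (0.885) and the replication helicase genes MCM5 (0.879) and MCM7 (0.878). These correlations are descriptions over few arrays.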

How the data were processed

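Per the submitters' processing notes, the authors made the deposited log2 values per probe set with RMA, which gives no version there and which subtracts background and equalises the arrays, so that it can hide a change common to most genes. Genes were named from the platform's annotation, updated to RefSeq symbols through Entrez identifiers (19052 of 19064 matched). Probe sets of several genes (1043) or none (2108) and 62 controls were left out. Tests were two-sided, from limma's lmFit and eBayes (limma 3.58.1, run under R 4.3.3) on all 19064 probe sets, and p-values were adjusted over all of them by Benjamini-Hochberg with a threshold of 0.05. The 48 h fit used 9 arrays, the 2 to 24 h fit time as a block, and the fit against 0 h series as a block. The fit of differences between effects used the arrays of 2 to 48 h, with a mean for each time and a shared spread. The steps were tested on simulated data. Since no label says that the 48 h arrays came from separate cultures, the spread behind each p-value is that of these arrays alone and may be technical, and the number of arrays limits the precision. The clock genes and gene lists were chosen with earlier results of these data known. Named were all clock probe sets, the 3 most alike, and OGT and OGA. For each list and comparison, up to 3 called probe sets with the smallest p were picked and recomputed under the alternatives. Only part of these list calls are printed here. Further called NPAS2, BHLHE40 and BHLHE41 probe sets were named after their values were seen. Alternatives were other normalization, filters, probe sets per gene, variance models, blocks and left-out arrays, times or series. Figures were drawn with matplotlib 3.10.9.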

Additional observations from a re-analysis of the deposited data

Results flagged for a closer look

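Probe set 202861_at, annotated with both MIR6883 and PER1 and therefore outside the comparisons above, was higher than at 0 h by 0.52 at 2 h (SE 0.0885, limma adjusted p = 0.0169 over all 22215 probe sets that are not controls) and by 0.46 at 4 h (adjusted p = 0.0136). It read 7.88, 7.45 and 7.72 at 2 h in the 5SGlcNAc, Thiamet-G and DMSO series and 7.73, 7.38 and 7.76 at 4 h, against 7.18, 7.06 and 7.25 at 0 h. The other probe set with this annotation, 36829_at, gave 0.28 at both times and was not called (adjusted p = 0.154 and 0.054). Of the probe sets that name 1 gene, 0.462% were called at 2 h and 2.71% at 4 h. No values with a series left out are given for the calls of 202861_at.

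The effect of 5SGlcNAc at 48 h differed from its effect over 2 to 24 h, by a test of the difference, for 4 NPAS2 probe sets, by -0.68 (213462_at), -0.68 (39549_at), -0.53 (39548_at) and -0.58 (205460_at). It differed for KLF9 203543_s_at by -0.77 (adjusted p = 0.0328), with -0.18 and -0.04 in the KLF9 probe sets 203542_s_at and 203541_s_at, which were not called, and for ALAS1 205633_s_at by 0.32 (adjusted p = 0.0411). The KLF9 and ALAS1 differences were past the threshold in 11 of 16 and in 10 of 18 alternatives, and the largest adjusted p was 0.108 for KLF9 and 0.151 for ALAS1, each with arrays of 48 h left out.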

How the results depend on the processing

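All 10 clock gene calls against 0 h kept their sign in 126 recomputed values, of which 90 stayed past the threshold; 36 did not. Of the other recomputed clock values, 10 newly passed it, and 83 uncalled values changed sign among 2247. The count of called clock probe sets at 4 h, 2 as reported, was 1 with a filter on dim probe sets, with 1 probe set per gene or without the DMSO array of 4 h, 0 without the DMSO and Thiamet-G arrays of 4 h (an alternative chosen after seeing the data), and 0 to 0 with a series left out. With a series left out the counts were 0 to 1 at 6 h and 0 to 1 at 8 h (3 each as reported) and 0 to 2 at 24 h (2 as reported); at 24 h the count was 1 without a series block and 1 without both 4 h arrays. Without a series block the calls of CLOCK at 6 h, BMAL1 210971_s_at at 8 h and PER3 at 24 h were lost, and after quantile normalization that of BMAL1 210971_s_at at 8 h. Leaving out a series leaves 2 arrays per time. Of 0 as reported at 48 h, 5SGlcNAc against Thiamet-G gave 1 (BMAL1) after quantile normalization, a filter on dim probe sets, 1 probe set per gene or trend and robust variance, and 0 to 1 with an array left out. For 5SGlcNAc against DMSO at 48 h the count was 1 (PER2) with the filter on dim probe sets or only the arrays of both groups, and 0 to 1 with an array left out. Over 2 to 24 h, trend and robust variance gave 1 (NR1D2) for 5SGlcNAc against Thiamet-G. Counts over all probe sets ran from 691 to 2177 for 5SGlcNAc against DMSO at 48 h (1433 as reported), 25 to 1073 for Thiamet-G (401), 976 to 2834 for 5SGlcNAc against Thiamet-G (1902), and, over 2 to 24 h, 0 to 18 for Thiamet-G (0) and 0 to 189 for 5SGlcNAc against Thiamet-G (18). Against 0 h they ran from 0 to 156 at 2 h (88), 0 to 788 at 4 h (517), 5 to 1122 at 6 h (638), 0 to 1512 at 8 h (886) and 287 to 2052 at 24 h (1495). The differences between effects gave 77 to 395 (188) for 5SGlcNAc and 0 to 2 (2) for Thiamet-G. The causes of these moves were not tested.

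No pairing of the 48 h arrays by replicate number was visible in their deviations. Same-numbered arrays correlated from -0.32 to 0.18 and other pairs from -0.23 to 0.24. Deviations among so few arrays per treatment cannot exclude pairing, and the labels do not say whether the arrays were paired. With the replicate block 0 clock probe sets were called in each comparison, as without it. Calls lost with the block were those of JUN and BHLHE40 for 5SGlcNAc against DMSO, CDKN1A, EGR1 and DUSP1 for Thiamet-G against DMSO, and PPP1CB, FBXW7, HDAC3 and CREM for 5SGlcNAc against Thiamet-G. Of 35 recomputed list calls between treatments at 48 h, 19 held under every alternative, those of the 4 NPAS2 probe sets among them.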

Other observations

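The 3 probe sets annotated with both NR1D1 and THRA, which share no settled gene, gave the following values in the fit over all probe sets that are not controls. At 8 h against 0 h they differed by -0.40 (204760_s_at, limma adjusted p = 0.0997), -0.25 (31637_s_at, 0.102) and -0.17 (217476_at, 0.182), and none was called in any comparison. At 48 h 204760_s_at averaged 6.99 with 5SGlcNAc and 6.92 with Thiamet-G, against 6.87 with DMSO, and the MIR6883 and PER1 probe set 202861_at averaged 7.71 and 7.64, against 7.68.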
